A study of Homo sapiens with 5 samples.

Results

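The heat shock chaperone and small HSP set comprised 10 genes chosen by name: HSPB1, CRYAB, BAG3, HSPA1A, HSPA1B, HSPA8, HSPH1, DNAJB1, HSP90AA1 and HSPE1. All 10 were found among the 33538 genes of the count matrix, each under 1 entry, and all 10 passed the filter on low counts. They were measured in MDA-MB-468, an established human triple-negative breast cancer line, in which the gene of the transcription factor FRA-1, FOSL1, was raised in 2 systems. The HA system had a FOSL1 sample (HA FOSL1) and a control sample (HA control). The VPR system had 2 FOSL1 samples made with different guide RNAs (VPR FOSL1 gRNA2 and VPR FOSL1 gRNA3) and 1 control sample (VPR control). HA and VPR are used as the labels give them, without being spelled out there. 5-fluorouracil appears in the labels without being tied to any of the 5 samples. Each group was 1 sample, the 5 samples were stained with hashtag antibodies and run in 1 single-cell library (the protocol counts 6 pooled samples but lists 5), and nothing in the labels describes separate cultures or clones.

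Chaperones keep proteins folded. HSPB1 (HSP27) and CRYAB (alpha-B crystallin) are small HSPs, which hold unfolding proteins without using ATP. HSPA1A and HSPA1B encode the inducible HSP70 and HSPA8 its constitutive relative HSC70. DNAJB1 (HSP40) delivers clients to HSP70, while HSPH1 (HSP110) and BAG3 exchange its nucleotide. BAG3 also links HSP70 to small HSPs and to selective autophagy. HSP90AA1 is the inducible cytosolic HSP90, and HSPE1 (HSP10) is the lid of the mitochondrial HSP60 chaperonin. When proteins unfold, the transcription factor HSF1 binds heat shock elements, inverted repeats of GAA, and raises many of these genes together. In basal-like breast cancer CRYAB is a known marker, and HSPB1 is widely expressed in breast tumours.

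In RefSeq (GRCh38.p14) CRYAB spans chr11:111908564-111923740, HSPB1 chr7:76302673-76304292 and BAG3 chr10:119651380-119677819. HSPA1A (chr6:31815543-31817942) and HSPA1B (chr6:31827738-31830254) are neighbours.

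Promoter stretches are shown because the 10 genes are usually discussed as targets of 1 factor. The RefSeq table (GRCh38.p14) held promoters of 9 of the 10 genes, all but CRYAB. The 250 bases before each start were searched on both strands for the heat shock pattern GAANNTTC or TTCNNGAA, and for the AP-1 pattern TGAGTCA or TGACTCA, since FRA-1 is an AP-1 subunit. Capitals mark matches, all sequences run 5′ to 3′ on the gene's own strand, and neighbouring heat shock matches can overlap. The first pair below are the whole upstream stretches of HSPB1 (chr7:76302423-76302672, plus strand) and BAG3 (chr10:119651130-119651379, plus strand), followed by shorter stretches of HSPA8 (chr11:123062340-123062369 and chr11:123062169-123062198, minus strand), HSPA1A (chr6:31815387-31815466, plus strand), HSPA1B (chr6:31827583-31827662, plus strand), DNAJB1 (chr19:14518415-14518494, minus strand) and HSP90AA1 (chr14:102087083-102087162, minus strand).
HSPB1: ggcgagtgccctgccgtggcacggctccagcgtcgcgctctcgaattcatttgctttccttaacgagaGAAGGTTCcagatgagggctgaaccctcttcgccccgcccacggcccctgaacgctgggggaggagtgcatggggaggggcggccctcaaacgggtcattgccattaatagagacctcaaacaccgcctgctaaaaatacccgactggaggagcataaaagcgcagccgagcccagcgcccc
BAG3: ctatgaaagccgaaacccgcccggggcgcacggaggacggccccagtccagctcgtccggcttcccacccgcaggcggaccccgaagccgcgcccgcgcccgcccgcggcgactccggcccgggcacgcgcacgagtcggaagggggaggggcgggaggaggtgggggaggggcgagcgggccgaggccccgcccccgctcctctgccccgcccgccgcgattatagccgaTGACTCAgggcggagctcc
HSPA8, farther from the start: cttGAAAGTTCCAGAAcgctgcggtgagtg
HSPA8, nearer to the start: gggccccTTCTGGAAGGTTCtaagataggg
HSPA1A: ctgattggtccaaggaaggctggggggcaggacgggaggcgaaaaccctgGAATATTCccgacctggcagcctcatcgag
HSPA1B: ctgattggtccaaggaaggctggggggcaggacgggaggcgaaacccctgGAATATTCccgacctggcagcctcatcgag
DNAJB1: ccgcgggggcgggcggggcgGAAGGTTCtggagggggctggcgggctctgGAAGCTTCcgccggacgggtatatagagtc
HSP90AA1: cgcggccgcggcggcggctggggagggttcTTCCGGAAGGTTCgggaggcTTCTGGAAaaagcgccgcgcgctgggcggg

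The heat shock pattern was present in 6 of the 12 promoters of these 9 genes (DNAJB1 and HSP90AA1 have several), 1 in each of 6 genes, against 11.6% of the 35116 human promoters of the same length. It lay 182 bases before the start in HSPB1, 106 in HSPA1A, 105 in HSPA1B, and 77 and 47 before 1 of the starts of DNAJB1. The DNAJB1, HSP90AA1 and HSPA8 stretches lie within the span RefSeq gives for the whole gene. The longer pattern, in which GAANNTTC runs on with NNGAA or TTCNNGAA runs on with NNTTC, holds the shorter pattern and its overlapping repeat; it was found in 1 promoter each of HSPA8 and HSP90AA1 and in 0.441% of all promoters. BAG3, HSPH1 and HSPE1 had no match to these letters within the window. The AP-1 pattern was found in BAG3 alone of the 9, 19 bases before the start, and in 4.20% of all promoters. These matches describe letters and no binding was measured.

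After filtering, the samples held between 1826 and 4299 cells and between 42058533 and 85556699 UMIs, and the median cell had between 15401.5 and 20768.5 UMIs. The median share of mitochondrial UMIs was 9.80% in HA FOSL1, 10.6% with gRNA2 and 10.5% with gRNA3, against 11.5% in the HA control and 11.3% in the VPR control. FOSL1 stood at 63.5 CPM (counts scaled to a common library total) in HA FOSL1, 101 CPM with gRNA2 and 94.3 CPM with gRNA3, against 8.96 CPM in the HA control and 8.91 CPM in the VPR control. All 6 epithelial and line markers were expressed, and the summed immune, fibroblast and endothelial markers did not pass 4.47, 4.33 and 1.81 CPM in any sample. No cell barcode was listed more than once.

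**Figure D1:**
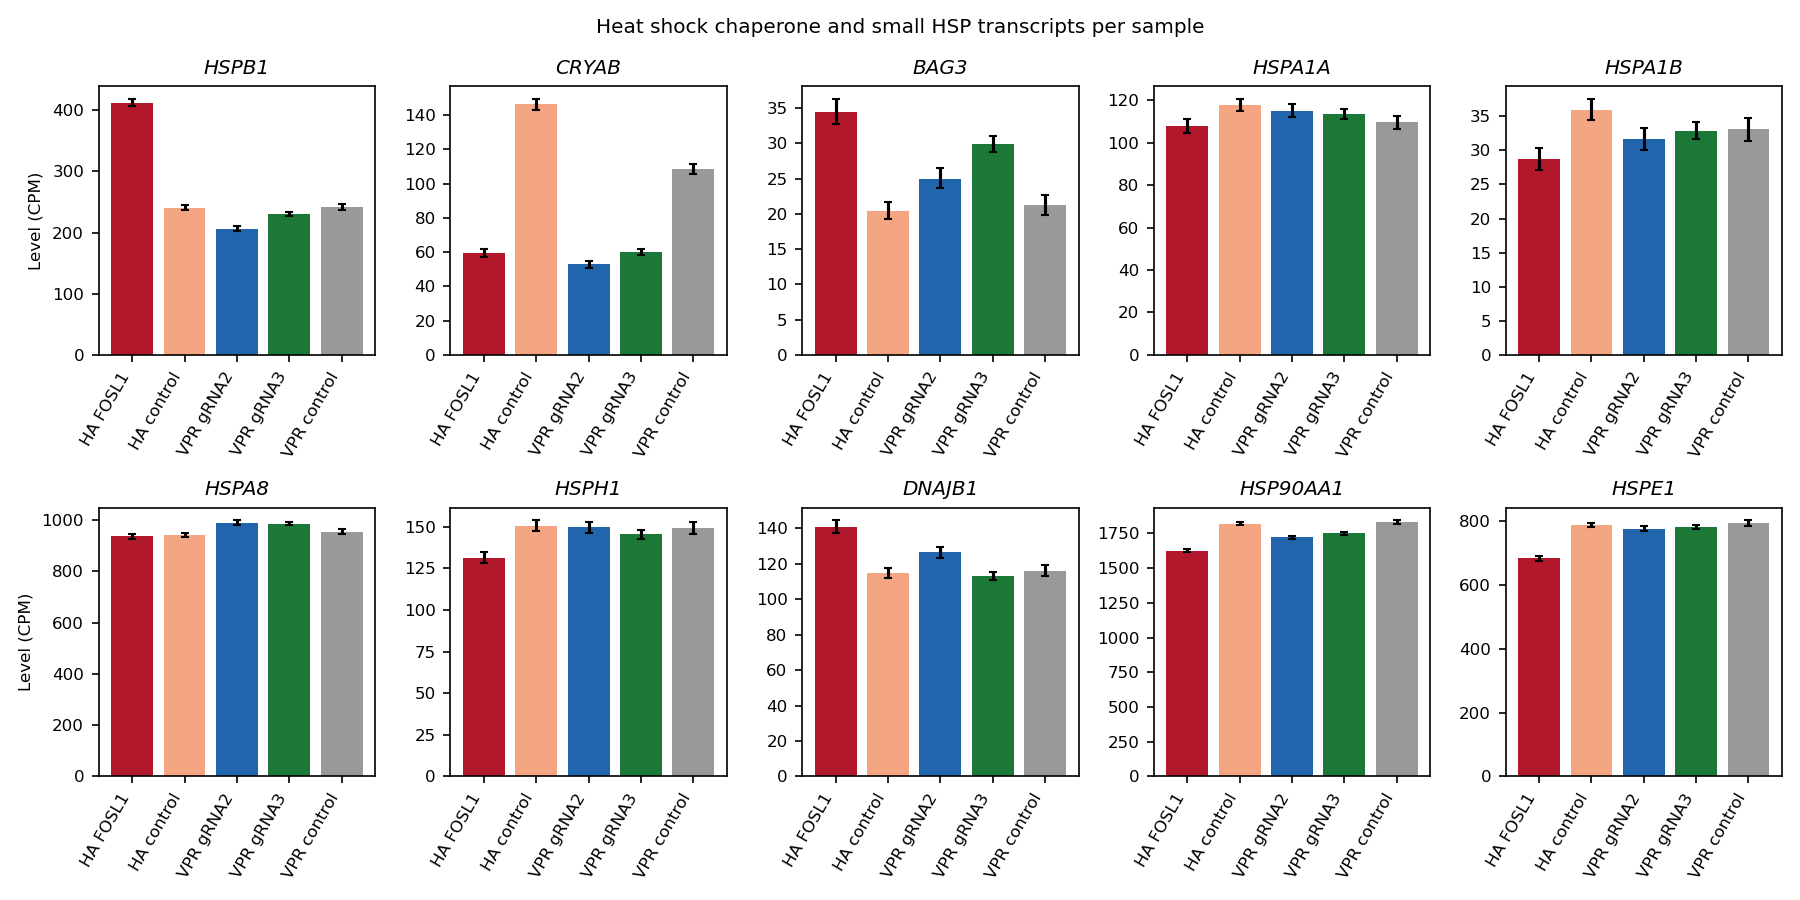
Level of the 10 transcripts in each sample (bars, CPM from 0), with 95% intervals (exact Poisson, counting error alone). HSPB1 stands at 412 CPM in HA FOSL1 and between 206 and 241 CPM in the other 4 samples, and CRYAB is between 53.0 and 60.1 CPM in the 3 FOSL1 samples, below both controls.

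The small HSPs went different ways. CRYAB fell in the FOSL1 samples of both systems, whereas HSPB1 was higher than its control in the HA system and a little lower in the VPR system. CRYAB was at 59.3 CPM (95% interval 57.0 to 61.7) in HA FOSL1, against 146 CPM (143 to 149) in the HA control. CRYAB stood at 53.0 CPM (50.9 to 55.1) in gRNA2 cells and at 60.1 CPM (58.4 to 61.7) in gRNA3 cells, against 108 CPM (105 to 112) in the VPR control. The 3 FOSL1 samples lay close together and below both controls, and the controls themselves differed, with a log2 difference in CRYAB of -0.43 (VPR control over HA control). On the scale of log2 of CPM + 1, the difference from the own control was -1.29 (-1.35 to -1.22) in HA FOSL1, -1.02 (-1.09 to -0.95) with gRNA2 and -0.84 (-0.90 to -0.79) with gRNA3. These intervals, like all others here, cover counting error only, and the gRNA2 and gRNA3 comparisons share the VPR control. In bulk sums, fewer cells with a transcript and less of it per cell cannot be told apart; the distribution over cells is given further on.

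A model of all 5 samples was fitted with edgeR over 15439 genes, with terms for system and for FOSL1, so that HA FOSL1, gRNA2 and gRNA3 stand in for replicates. The p-values thus reflect how far these constructs and guides differ inside a single pool. The model called 1.61% of genes (adjusted p under 0.05; 0.9% higher and 0.706% lower), and CRYAB was the single call among the 10 chaperone genes. CRYAB fell by 1.07 on the log2 scale (SE 0.102, edgeR adjusted p = 0.032), lower in 3 of 3 FOSL1 samples than in their controls. With 1 VPR FOSL1 sample left out, the estimate was -1.04 without gRNA2 (edgeR adjusted p = 0.11) and -1.14 without gRNA3 (edgeR adjusted p = 0.083), and in both cases 0 genes of the whole table were called, with 2614 and 2371 genes at an unadjusted p under 0.05. The median over all genes tested was -0.01, and over the 10 chaperone genes -0.03.

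HSPB1 reached 412 CPM (406 to 418) in HA FOSL1, against 241 CPM (237 to 245) in the HA control. In the VPR system HSPB1 stood at 206 CPM (202 to 210) in gRNA2 cells and 231 CPM (228 to 234) in gRNA3 cells, against 241 CPM (237 to 246) in the VPR control. HA FOSL1 thus stood alone and the other 4 samples were close to each other. The difference from the own control was 0.78 (0.74 to 0.81) in HA FOSL1, -0.23 (-0.27 to -0.19) with gRNA2 and -0.06 (-0.10 to -0.03) with gRNA3, and the controls of the 2 systems differed by 0.00 (-0.03 to 0.04). The 5-sample model gave HSPB1 0.26 (SE 0.211, edgeR adjusted p = 0.46).

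Whether the response differed between systems was tested with an interaction model in edgeR, whose term is the HA effect minus the VPR effect and rests on the 2 guides as repeats (1 residual degree of freedom). It called 13.6% of genes (9.13% higher and 4.48% lower), and 2 of the 10 chaperone genes, HSPB1 and CRYAB. The term was 0.94 for HSPB1 (SE 0.0895, edgeR adjusted p = 1.70e-05). For CRYAB it was -0.35 (SE 0.102, edgeR adjusted p = 0.038). The call on HSPB1 held under DESeq2, which called 450 genes, while that on CRYAB did not under DESeq2 (adjusted p = 0.47) or with DESeq2's size factors in edgeR (adjusted p = 0.054). The difference between the 2 controls bears on CRYAB: set against the VPR control, the CRYAB difference of HA FOSL1 was -0.86, in place of -1.29 against its own.

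**Figure D2:**
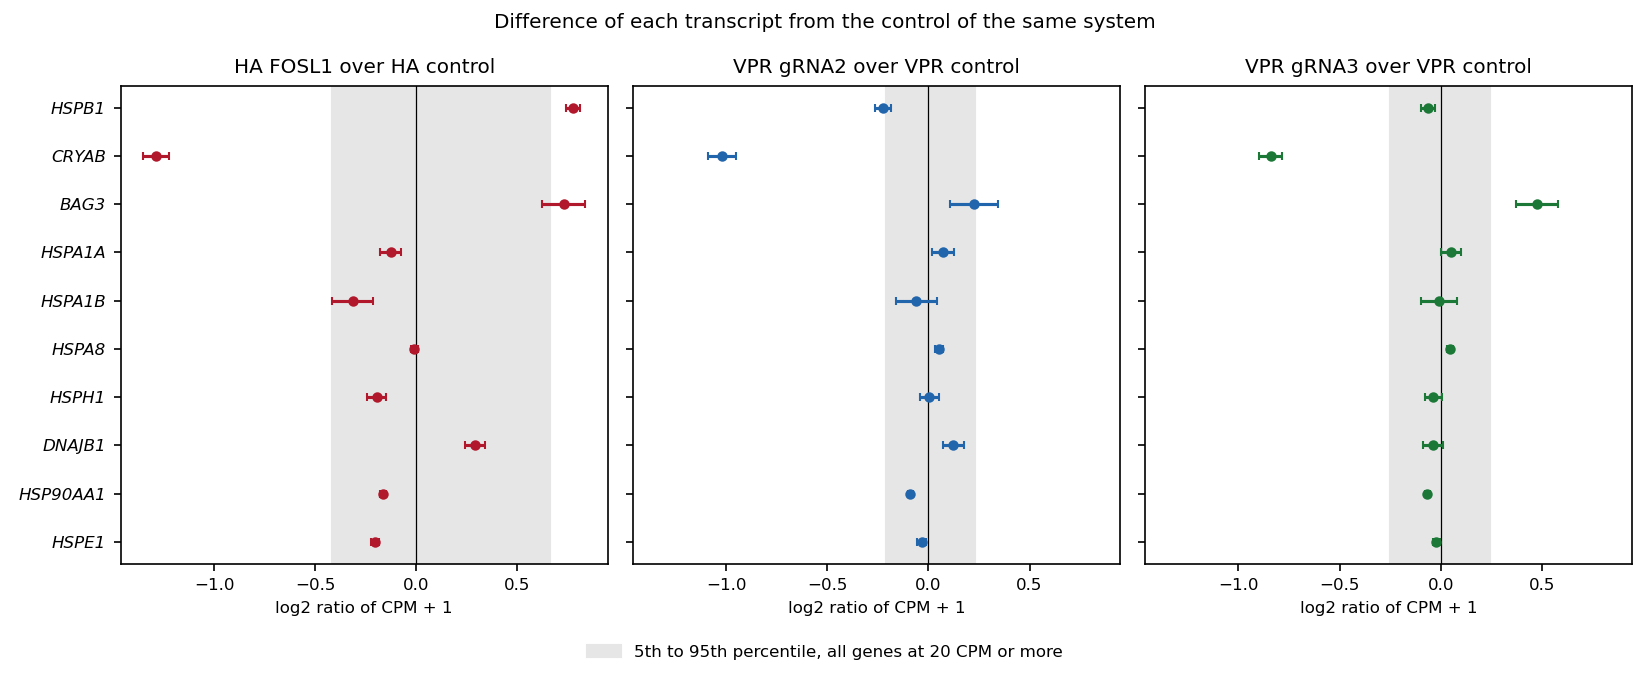
Log2 ratio of CPM + 1 of each transcript in the 3 FOSL1 samples, each over the control of its own system (points, with 95% counting intervals), and the 5th to 95th percentile over all genes whose mean reached 20 CPM (grey). CRYAB lies below the grey band in all 3 panels, HSPB1 lies above it in the HA panel (0.78) and below it with gRNA2 (-0.23), BAG3 lies above it in the HA panel (0.73) and with gRNA3 (0.48), and the other 7 transcripts lie inside it.

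Among the HSP70 machinery BAG3 stood farthest from its controls, above them in all 3 FOSL1 samples. It was at 34.5 CPM (32.7 to 36.3) in HA FOSL1, against 20.4 CPM (19.3 to 21.6) in the HA control. BAG3 was at 25.0 CPM (23.6 to 26.4) in gRNA2 cells and 29.9 CPM (28.8 to 31.1) in gRNA3 cells, against 21.2 CPM (19.9 to 22.6) in the VPR control. All 3 FOSL1 samples were above both controls, with gRNA2 nearest to them. The differences from the own control were 0.73 (0.62 to 0.84), 0.23 (0.11 to 0.35) and 0.48 (0.37 to 0.58) for HA FOSL1, gRNA2 and gRNA3. The 5-sample model gave 0.56 (SE 0.129), which missed the threshold in edgeR (adjusted p = 0.087) and passed it in DESeq2 (adjusted p = 0.0050) and in edgeR without the filter on low counts (adjusted p = 0.0064). In edgeR the estimate was 0.66 without gRNA2 (adjusted p = 0.15) and 0.52 without gRNA3 (adjusted p = 0.26).

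Summed over all kept cells, the inducible HSP70 genes lay close to their controls in the VPR system and somewhat lower in HA FOSL1, HSPA1B more so than HSPA1A. HSPA1A was at 108 CPM (105 to 111) in HA FOSL1, against 118 CPM (115 to 121) in the HA control, and at 115 CPM with gRNA2 and 114 CPM with gRNA3, against 110 CPM in the VPR control. HSPA1B was at 28.7 CPM (27.1 to 30.4) in HA FOSL1, against 36.0 CPM (34.4 to 37.6) in the HA control, and at 31.7 CPM with gRNA2 and 32.9 CPM with gRNA3, against 33.1 CPM in the VPR control. The HSPA1B difference in HA FOSL1 was -0.31, and -0.56 in cells with at most 10% mitochondrial UMIs. In cells with 12% to 20% mitochondrial UMIs it was -0.10. The HA differences also varied with depth. In cells with under 14000 UMIs they were 0.16 for HSPA1A and 0.09 for HSPA1B, above the control. They were -0.15 and -0.25 between 14000 and 20000 UMIs, and -0.32 and -0.54 above. HSPA1A and HSPA1B are near-identical copies, so the split of reads between them is uncertain. Their sum was 136 CPM in HA FOSL1, against 154 CPM in the HA control, a difference of -0.17 (-0.22 to -0.12). With gRNA2 and gRNA3 the sum differed from the VPR control by 0.04 in both cases, with intervals that include 0. The 2 controls differed in the sum by -0.11 (VPR over HA), which is of the same order as the HA difference. In the 5-sample model edgeR gave HSPA1A an adjusted p of 0.98 and HSPA1B one of 0.33.

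Constitutive HSC70 and the cochaperones were close to their controls as well. HSPA8 was at 936 CPM in HA FOSL1, against 942 CPM in the HA control, and at 989 CPM with gRNA2 and 986 CPM with gRNA3, against 955 CPM in the VPR control. HSPH1 was at 131 CPM in HA FOSL1, against 151 CPM in the HA control, and at 150 CPM with gRNA2 and 145 CPM with gRNA3, against 149 CPM in the VPR control. DNAJB1 was at 141 CPM in HA FOSL1, against 115 CPM in the HA control, and at 126 CPM with gRNA2 and 113 CPM with gRNA3, against 116 CPM in the VPR control. Of the 10 genes, only DNAJB1, BAG3 and HSPB1 stood higher in HA FOSL1 than in its control, DNAJB1 by 0.29 (0.24 to 0.34), while the HSPH1 difference there was -0.20 (-0.24 to -0.15). HSPA8, HSPH1 and DNAJB1 did not pass in the 5-sample model (edgeR adjusted p = 0.47, 0.45 and 0.26) or in the interaction model (edgeR adjusted p = 0.71, 0.14 and 0.061).

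HSP90AA1 and HSPE1 were lowest in HA FOSL1. HSP90AA1 was at 1626 CPM in HA FOSL1, against 1821 CPM in the HA control, and at 1722 CPM with gRNA2 and 1751 CPM with gRNA3, against 1832 CPM in the VPR control. HSPE1 was at 683 CPM in HA FOSL1, against 787 CPM in the HA control, and at 775 CPM with gRNA2 and 782 CPM with gRNA3, against 794 CPM in the VPR control. Both lay below their control in 3 of 3 FOSL1 samples, with log2 differences of -0.16, -0.09 and -0.07 for HSP90AA1 and -0.20, -0.03 and -0.02 for HSPE1. The HSPE1 difference varied with depth. In HA FOSL1 it was -0.03 in cells with under 14000 UMIs, -0.03 between 14000 and 20000, and -0.23 above. Over the same ranges it was 0.03, 0.00 and -0.06 with gRNA2 and 0.07, 0.02 and -0.04 with gRNA3. HSP90AA1 in HA FOSL1 differed by -0.08, -0.04 and -0.20. The 5-sample model called neither (edgeR adjusted p = 0.23 for HSP90AA1 and 0.36 for HSPE1), nor did the interaction model (edgeR adjusted p = 0.47 and 0.089).

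Counting differences of 1.5-fold or more (genes with a mean of 20 CPM or above), 3 of the 10 chaperone genes differed in HA FOSL1, HSPB1 and BAG3 higher and CRYAB lower, where 8.16% of the 5748 genes did (5.97% higher and 2.19% lower). The count was 2 when each cell was thinned to 5000 UMIs, BAG3 then differing by 0.45, and likewise 2 in cells with at most 10% mitochondrial UMIs, where HSPB1 differed by 0.54. With gRNA2 it was 1 of 10, where 1.51% of 5752 genes did (0.921% higher and 0.591% lower), and with gRNA3 1 of 10, where 1.79% of 5743 genes did (0.958% higher and 0.836% lower). That gene was CRYAB in both. The median of all genes was 0.00, 0.01 and 0.00 in the 3 comparisons. Between gRNA3 and gRNA2 none of the 10 differed that far, where 0.0873% of 5730 genes did (0.0175% higher and 0.0698% lower), nor between the VPR and HA controls, where 0.262% of 5726 genes did (0.0873% higher and 0.175% lower).

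The small HSPs were set beside the other 8 genes, most of them known HSF1 targets. The median difference of the 8 was -0.15 in HA FOSL1, 0.03 with gRNA2 and -0.01 with gRNA3, and their range in HA FOSL1 ran from -0.31 for HSPA1B to 0.73 for BAG3. CRYAB lay below that median by 1.14, 1.05 and 0.83 on the log2 scale in HA FOSL1, gRNA2 and gRNA3, and below the lowest of the 8 in each. HSPB1 lay 0.92 above the median in HA FOSL1, but close to BAG3, and -0.25 and -0.05 from it with gRNA2 and gRNA3. With 1 sample a group these differences have no replicate check.

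Over single cells, each thinned to 5000 UMIs so that depth is equal, CRYAB was seen in fewer cells of the 3 FOSL1 samples than of their controls, and HSPB1 in more cells of HA FOSL1. CRYAB had a UMI in 20.1% of 1818 HA FOSL1 cells (exact 95% interval 18.3 to 22.1), against 46.5% of 3367 HA control cells (44.8 to 48.2). It had a UMI in 21.3% of gRNA2 cells and 22.7% of gRNA3 cells, against 36.6% of VPR control cells. The 3 FOSL1 samples overlapped in their intervals and lay below both controls. Without thinning the shares were 43.9%, 50.4% and 53.2% in HA FOSL1, gRNA2 and gRNA3, against 77.6% in the HA control and 70.0% in the VPR control. The pool held no cell type known to lack CRYAB, so a background share from free RNA could not be measured this way. Free RNA, profiled from barcodes with 10 to 100 UMIs, contained CRYAB at 115 CPM (101 to 131). With 5% of each sample's UMIs subtracted as free RNA, the HA difference was -1.38.

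How CRYAB was spread over cells was read in 2 ways. The 10% of cells with the most CRYAB UMIs held 65.8% of them in HA FOSL1, against 39.5% in the HA control, and 58.3% with gRNA2 and 59.3% with gRNA3, against 48.6% in the VPR control. Such a share is higher at a lower mean by counting alone. The variance-to-mean ratio, which is 1 for pure counting noise, was 1.98 in HA FOSL1, against 1.34 in the HA control. It was 1.30 with gRNA2 and 1.53 with gRNA3, against 1.54 in the VPR control. Where counts vary by more than counting noise, this ratio also depends on the mean, which was lower in the FOSL1 samples. CRYAB averaged 0.296 UMIs per cell in HA FOSL1, against 0.721 in the HA control. It averaged 0.272 with gRNA2 and 0.311 with gRNA3, against 0.540 in the VPR control. The ratio was above that of the control in the HA system and not with either guide. At unlike means this does not rank the spread, which was not tested. At 6 or more CRYAB UMIs there were 6 of 1818 HA FOSL1 cells, against 7 of 3367 HA control cells.

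HSPB1 had a UMI in 78.2% of HA FOSL1 cells (76.2 to 80.1), against 60.1% of HA control cells (58.4 to 61.8). The share was 58.7% with gRNA2 and 62.8% with gRNA3, against 62.2% in the VPR control. The mean was 2.12 UMIs per cell in HA FOSL1, against 1.23 in the HA control, and the median cell held 2 UMIs, against 1. More than 4 UMIs were found in 12.7% of HA FOSL1 cells (11.2 to 14.3), against 3.77% of HA control cells (3.15 to 4.47), and at 10 or more there were 18 of 1818 cells, against 6 of 3367. The whole HSPB1 distribution of HA FOSL1 was shifted upward, its upper end included. The summed other 8 transcripts were somewhat lower there, with a mean of 18.5 UMIs, against 19.9 in the HA control. Their mean was 19.48 with gRNA2 and 19.75 with gRNA3, against 19.99 in the VPR control. Above 32 summed UMIs of those 8 there were 2.86% of HA FOSL1 cells (2.14 to 3.73), against 4.13% of HA control cells (3.48 to 4.86). Under 10 summed UMIs there were 5.23% of HA FOSL1 cells, against 3.15% of HA control cells. HSP90AA1, HSPA8 and HSPE1, with means of 8.26, 4.62 and 3.55 in HA FOSL1, made up most of the sum. The sum therefore says little about the rest, BAG3 and DNAJB1 among them.

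**Figure D3:**
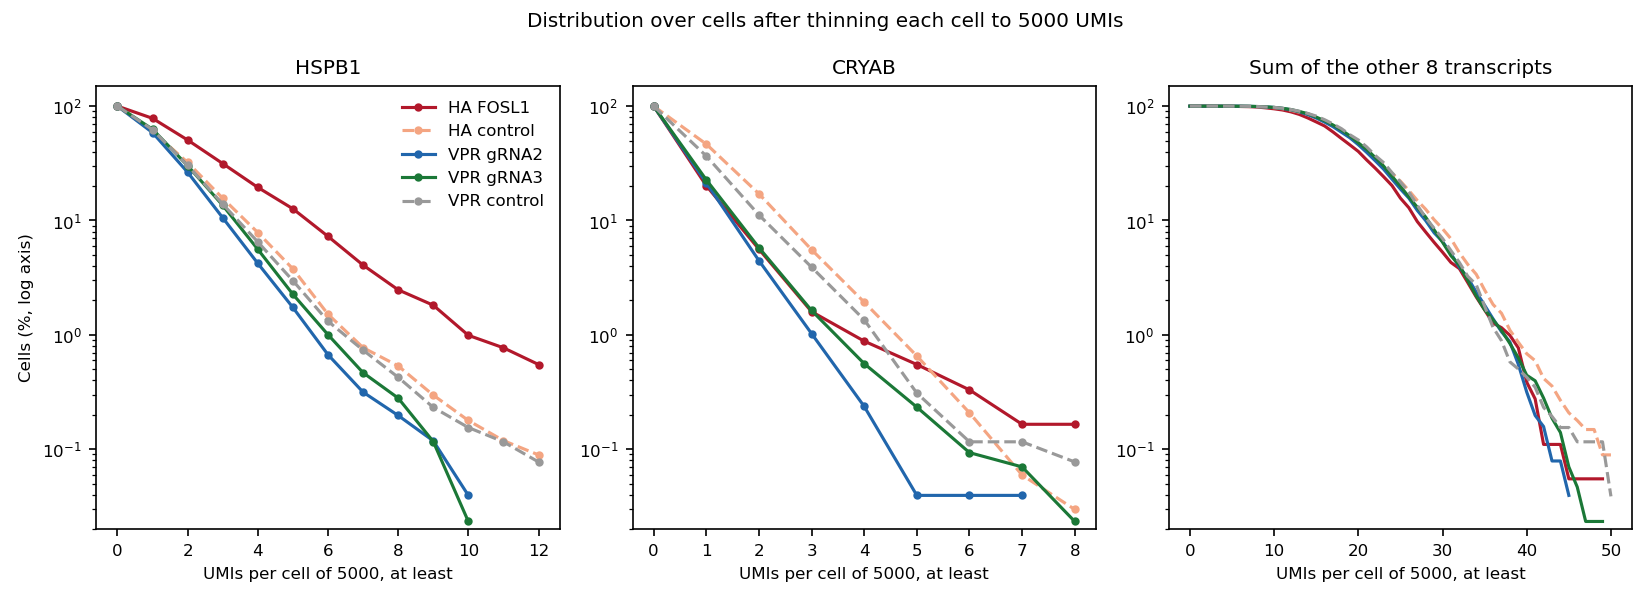
Share of cells (%, log axis) with at least a given number of UMIs, after thinning each cell to 5000 UMIs, for HSPB1, CRYAB and the sum of the other 8 transcripts. The HA FOSL1 line lies above the other 4 for HSPB1 (12.7% of cells over 4 UMIs, against 3.77% in the HA control). For CRYAB the 3 FOSL1 lines start below both controls. For the summed 8 the 5 lines lie closer together, with the lowest mean in HA FOSL1 (18.5 UMIs, against 19.9 in the HA control).

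Cells with much inducible HSP70 RNA were very rare. At 8 or more thinned UMIs of HSPA1A and HSPA1B together there was 1 cell in HA FOSL1, 1 with gRNA2 and 0 of 4289 with gRNA3, against 3 in the HA control and 0 of 2587 in the VPR control. The counts of 0 allow shares of up to 0.0860% and 0.142% of cells (upper bound of the exact 95% interval). The highest single cell, with 29 UMIs, was in the HA control. Over cells, correlations were weak throughout, in sparse counts that share 1 library. The 28 pairs of the other 8 transcripts had median Spearman coefficients between 0.02 and 0.03 in the 5 samples, and HSP90AA1 with HSPE1 reached 0.15 in HA FOSL1 and 0.16 in the VPR control. HSPB1 and CRYAB had 0.17 over 1818 HA FOSL1 cells, against 0.06 over 3367 HA control cells, and 0.01 with gRNA2 and 0.03 with gRNA3, against 0.05 in the VPR control.

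BAG3, HSPA1B and other low transcripts were near the floor of this depth. BAG3 had a UMI in 13.7% of HA FOSL1 cells (12.1 to 15.4), against 10.1% of HA control cells (9.13 to 11.2). It was in 11.7% of gRNA2 cells and 12.3% of gRNA3 cells, against 9.59% of VPR control cells. Without thinning, where depth differs between samples, BAG3 was in 47.2% of HA FOSL1 cells, against 27.8% of HA control cells. It was then in 35.6% of gRNA2 cells and 40.7% of gRNA3 cells, against 28.7% of VPR control cells. The BAG3 difference from the control also varied with depth. In HA FOSL1 it was 0.33 in cells with under 14000 UMIs, 0.62 between 14000 and 20000, and 0.74 above. With gRNA2 the order was the opposite, 0.45, 0.29 and 0.05, and gRNA3 followed neither, at 0.44, 0.56 and 0.33.

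Within the 3 FOSL1 samples, cells were split by their own FOSL1 UMIs after thinning. CRYAB averaged 0.329 UMIs in HA FOSL1 cells with 0 FOSL1 UMIs (0.300 to 0.361), 0.195 in those with 1 (0.149 to 0.252) and 0.118 in those with 2 or more (0.0590 to 0.212), against 0.721 in the HA control. With gRNA2 the means were 0.307, 0.206 and 0.169, and with gRNA3 0.352, 0.210 and 0.207, against 0.540 in the VPR control. CRYAB was thus lower in cells with FOSL1 UMIs in all 3 samples, and lower than in the control even where none was counted; a count of 0 after thinning does not mean that FOSL1 was absent.

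HSPB1 was likewise lower in cells with FOSL1 UMIs in HA FOSL1, although it was above the control in every bin there. It averaged 2.26 UMIs in HA FOSL1 cells with 0 FOSL1 UMIs (2.18 to 2.33), 1.66 in those with 1 (1.52 to 1.81) and 1.59 in those with 2 or more (1.35 to 1.87), against 1.23 in the HA control. With gRNA2 it averaged 1.04, 0.967 and 1.10, and with gRNA3 1.18, 1.15 and 1.05, against 1.19 in the VPR control. Over cells of HA FOSL1 the Spearman coefficient with FOSL1 was -0.11 for HSPB1 and -0.11 for CRYAB. With gRNA2 it was 0.00 for HSPB1 and -0.07 for CRYAB, and with gRNA3 -0.02 and -0.10.

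Among the others, HSPA8 and DNAJB1 were higher in cells with FOSL1 UMIs. HSPA8 averaged 4.46, 5.15 and 5.33 UMIs in HA FOSL1 cells with 0, 1 and 2 or more FOSL1 UMIs, against 4.51 in the HA control. It averaged 4.52, 4.93 and 5.64 with gRNA2 and 4.60, 5.04 and 5.43 with gRNA3, against 4.58 in the VPR control. BAG3 averaged 0.135, 0.195 and 0.269 in HA FOSL1, against 0.110 in the HA control, and 0.124, 0.123 and 0.120 with gRNA2 and 0.133, 0.125 and 0.201 with gRNA3, against 0.105 in the VPR control. DNAJB1 averaged 0.647, 0.765 and 0.742 in HA FOSL1, against 0.558 in the HA control. HSP90AA1 and HSPE1 in HA FOSL1 went the other way, HSPE1 averaging 3.62, 3.37 and 3.09, against 4.01 in the HA control.

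Depth and mitochondrial share moved with these bins. Before thinning, HA FOSL1 cells with 0, 1 and 2 or more FOSL1 UMIs had medians of 20309, 23484 and 25820 UMIs, and of 9.98%, 9.45% and 8.30% mitochondrial UMIs, against 15424 UMIs and 11.5% in the HA control. Their part in the gradients was not tested. HSPA8 and DNAJB1 rose with depth in the HA control too. In cells there with under 14000, 14000 to 20000 and over 20000 UMIs, HSPA8 stood at 816, 909 and 1065 CPM. DNAJB1 stood at 99.6, 112 and 129 CPM in the same ranges. CRYAB itself stood at 57.2, 58.0 and 59.9 CPM in HA FOSL1 cells with under 14000, 14000 to 20000 and over 20000 UMIs, against 140, 142 and 155 CPM in the HA control, so the HA difference was between -1.28 and -1.35 in the 3 ranges. In the VPR system the CRYAB difference was larger in deeper cells, at -0.66, -0.96 and -1.22 with gRNA2 and -0.43, -0.76 and -1.05 with gRNA3.

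**Figure D4:**
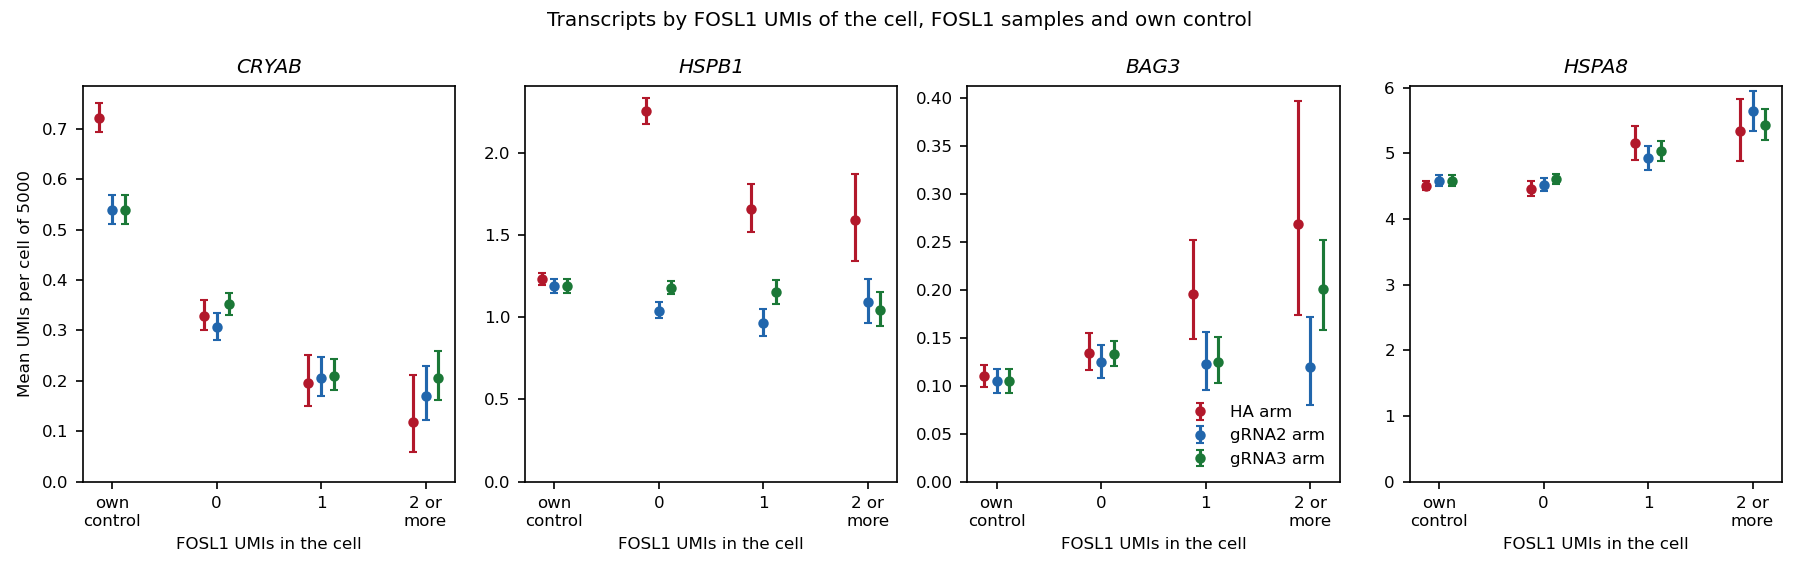
Mean UMIs per cell after thinning to 5000, for CRYAB, HSPB1, BAG3 and HSPA8, by the FOSL1 UMIs of the cell in each FOSL1 sample, with the own control at the left (points, exact 95% Poisson intervals). CRYAB is lower in cells with FOSL1 UMIs in all 3 samples (0.329, 0.195 and 0.118 in HA FOSL1), HSPB1 in HA FOSL1 is highest at 0 FOSL1 UMIs, and HSPA8 increases along the bins.

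The HSPB1 difference varied with the mitochondrial share of the cells. In HA FOSL1 it was 0.47 in cells under 9% mitochondrial UMIs, 0.67 between 9% and 12%, and 1.03 between 12% and 20%. With gRNA3 it was -0.31, -0.15 and 0.19 over the same ranges, and with gRNA2 -0.38, -0.33 and -0.07. HSPB1 in the HA control stood at 310, 247 and 201 CPM in these ranges, while in HA FOSL1 it was 430, 393 and 412 CPM. CRYAB was lower than its control in each of the 3 ranges and each of the 3 FOSL1 samples, by -1.37, -1.38 and -1.45 in HA FOSL1. In 421 assigned cells with over 50% mitochondrial UMIs, which were left out, CRYAB had 11 UMIs in all, 0.439 of its level in kept cells once mitochondrial genes were taken out of the total. HSP90AA1 stood there at 0.569, HSPE1 at 0.643, HSPH1 at 0.646, HSPA8 at 0.693, BAG3 at 0.891 and HSPB1 at 0.939. DNAJB1 at 1.03, HSPA1B at 1.13 and HSPA1A at 1.22 were not lower there. These are small counts, with 7 UMIs of BAG3 and 11 of HSPA1B.

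Among chaperone genes outside the 10, the 5-sample model made few calls. In edgeR it left 4020 of all 15439 genes tested at an unadjusted p under 0.05, so the unadjusted counts given for lists below are no sign of a difference by themselves. Of 15 other HSF1 targets the 5-sample model called 0 in edgeR, 2 of them at an unadjusted p under 0.05, both higher, and 0 in DESeq2, and their median differences were -0.02 in HA FOSL1, 0.01 with gRNA2 and 0.02 with gRNA3. HSPD1, the HSP60 partner of HSPE1, was at 719 CPM in HA FOSL1, against 839 CPM in the HA control, and at 888 CPM with gRNA2 and 905 CPM with gRNA3, against 849 CPM in the VPR control. The interaction model called 3 of these 15 genes in edgeR, where it called 13.6% of all genes, and 1 in DESeq2. They were HSPD1 (-0.28, edgeR adjusted p = 0.0047), also called in DESeq2, SERPINH1, the collagen chaperone HSP47 (-0.35, edgeR adjusted p = 0.017), and ZFAND2A, a stress-induced proteasome regulator (0.45, edgeR adjusted p = 0.0028). ZFAND2A was at 71.6 CPM in HA FOSL1, against 48.4 CPM in the HA control, and SERPINH1 at 41.3 CPM in HA FOSL1, against 56.1 CPM in the HA control. HSP90AB1, the constitutive HSP90, was at 2264 CPM in HA FOSL1, against 2308 CPM in the HA control, and at 2507 CPM with gRNA2 and 2542 CPM with gRNA3, against 2488 CPM in the VPR control. HSF1 itself stood at 34.5 CPM in HA FOSL1, against 29.8 CPM in the HA control, and at 30.4 CPM with gRNA2 and 31.0 CPM with gRNA3, against 32.5 CPM in the VPR control; the 5-sample model gave it 0.07 (edgeR adjusted p = 0.65). The interaction model called HSF1 in edgeR, at 0.31 (SE 0.0916, adjusted p = 0.040), and did not in DESeq2 (adjusted p = 0.95).

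Among the other small HSPs, 2 of 8 could be tested and neither was called in edgeR or DESeq2, with 0 at an unadjusted p under 0.05. HSPB8, the usual partner of BAG3, had 0 UMIs in all 5 samples. HSPB2, the neighbour of CRYAB, had 8 UMIs in HA FOSL1, against 20 in the HA control, and 7 with gRNA2 and 21 with gRNA3, against 8 in the VPR control, too few to compare. In the BAG family 1 of the other 5 genes was called by the 5-sample model in edgeR, where 1.61% of all genes were (0.9% higher). BAG2, an HSP70 cochaperone that inhibits the ubiquitin ligase CHIP, was at 37.0 CPM in HA FOSL1, against 25.9 CPM in the HA control. It was at 33.8 CPM with gRNA2 and 34.4 CPM with gRNA3, against 25.2 CPM in the VPR control. BAG2 rose by 0.49 (SE 0.0583, edgeR adjusted p = 0.040), in 3 of 3 FOSL1 samples, with an adjusted p of 0.15 without gRNA2 and 0.19 without gRNA3. Of the 8 subunits of the CCT chaperonin, 6 mitochondrial and 6 ER chaperone genes, none was called by the 5-sample model in edgeR, with 0, 1 and 1 genes at an unadjusted p under 0.05. DESeq2 called 0, 1 and 0 of them, where it called 1117 of all 14931 genes.

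Set beside the chaperones were 8 immediate early genes, whose RNA can rise during handling. FOS, FOSB and JUN among the 8 encode AP-1 subunits, as FOSL1 does, so their sum does not read handling alone. All 8 summed to 613 CPM in HA FOSL1, against 1062 CPM in the HA control, and to 1017 CPM with gRNA2 and 796 CPM with gRNA3, against 987 CPM in the VPR control. EdgeR called 0 of the 8 in the 5-sample model, with 1 lower at an unadjusted p under 0.05. DESeq2 called 1, lower, where it called 392 of 14931 genes lower. The interaction model called 4 of the 8 in edgeR, all with an HA effect below the VPR effect, where it called 4.48% of all genes in that direction. In DESeq2 it called 0 of the 8, where it called 450 of 13098 genes. HA FOSL1 therefore held the lowest sum of these genes together with the highest HSPB1 and BAG3, and the part of handling in the chaperone differences was not tested.

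The genes whose differences in the 3 FOSL1 samples were most like those of HSPB1, by root mean square over the 3 values among 5747 genes, were MSN, CEMIP2, IL18, PSMB9 and CSRP1. MSN, the membrane linker moesin, differed from HSPB1 by 0.0704, with 136 CPM in HA FOSL1, against 83.8 CPM in the HA control. The genes most like CRYAB were SAT1, SLPI, AGR2, MARCKSL1 and ALDH3B2. SAT1, a polyamine acetyltransferase, differed from CRYAB by 0.105, with 341 CPM in HA FOSL1, against 867 CPM in the HA control. SLPI, a secreted protease inhibitor, was next at 0.133. No other of the 10 chaperone genes was among the 5 nearest of either.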

How the data were processed

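Raw UMI counts were deposited for 33538 genes and 3314631 barcodes. The authors made them with Cell Ranger 4, per the file headers, on build hg38, per the submitters' processing notes. The deposited assignment table gives each of 21228 called cells a hashtag and its probability as a fraction, made by the authors with a tool not given in the sources used here. Of these cells, 15371 (72.4%) had 1 sample; multiplets (5181), unassigned (402) and blank (274) cells were left out. Hashtags named GOF were taken as the HA samples by elimination. No doublet caller was run, so pairs of cells carrying the same hashtag remain. Cells with at least 1500 genes and at most 20% mitochondrial UMIs were kept (14642).

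UMIs were summed per sample. The log2 ratios are of CPM + 1, with exact conditional binomial intervals at 95%; levels have exact Poisson and shares Clopper-Pearson intervals, and UMI intervals cover counting error only. Thinning to 5000 UMIs left out 44 cells. Sums were tested with edgeR 4.0.16 (glmQLFit, glmQLFTest, TMM, filterByExpr, Benjamini-Hochberg over all genes tested) in R 4.3.3, with DESeq2 1.42.0 as alternative, after tests on simulated data. The 5-sample model has 2 residual degrees of freedom. The members and lists were chosen with earlier results of these data known. Named genes were the 10 members, HSF1, HSPD1, HSP90AB1, HSPB8, genes of the wider lists called by the 5-sample model (at most 4 a list), the 5 nearest to HSPB1 and to CRYAB, and FOSL1. HSPB2, FOS, FOSB, JUN and the interaction results were named after their values were seen.

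Sequences are from RefSeq (GRCh38.p14). Figures were drawn with matplotlib 3.10.9.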

Additional observations from a re-analysis of the deposited data

Results flagged for a closer look

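The HA effect minus the VPR effect was 0.94 for HSPB1 on the log2 scale (edgeR adjusted p = 1.70e-05), a difference between the systems by the test of the difference itself. For CRYAB it was -0.35 (edgeR adjusted p = 0.038), the same direction in both systems and a larger difference in HA when each was set against its own control. The CRYAB call did not hold under DESeq2 or with its size factors in edgeR. Against the VPR control the CRYAB difference was -0.86 in HA FOSL1 and -1.02 with gRNA2. The terms for HSPB1 and CRYAB rest on 1 residual degree of freedom, and the model called 2100 of 15439 genes.

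Free RNA, outside the comparisons above, held HSPB1 at 363 CPM (338 to 390) and HSPE1 at 1075 CPM (1031 to 1120). Both intervals lie above the levels in both controls (HSPB1 at 241 CPM in each, HSPE1 at 787 CPM in the HA control and 794 CPM in the VPR control). BAG3 in free RNA was at 16.6 CPM (11.5 to 23.0), an interval that includes both controls.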

How the results depend on the processing

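The 5-sample model called 248 genes; it called 1984 with no filter on low counts, 1117 with DESeq2 and 0 when either VPR FOSL1 sample was left out, which leaves fewer samples. The interaction model called 2100 genes and 450 with DESeq2. HSPA1A, at 0.00 in the 5-sample model, ranged from -0.0041 to -0.0024 over the samples left out. The distance of HSPB1 from the median of the other genes in HA FOSL1 was 0.86 without HSPA1A and HSPA1B, in place of 0.92. The HSPB1 difference itself stayed at 0.78, and only the median of the other genes moved. The counts of chaperone genes at 1.5-fold or more, 3, 1 and 1, moved to 2 in HA FOSL1 under the 2 settings given above and under no other. With its own control, the CRYAB difference ranged from -1.38 to -1.25 in HA FOSL1, from -1.13 to -0.98 with gRNA2 and from -0.91 to -0.79 with gRNA3, and the HSPB1 difference in HA FOSL1 from 0.54 to 0.82. No paired analysis was possible because each group has 1 sample and the labels carry no replicate numbers. Depth limits BAG3 and HSPA1B, seen in at most 15.4% of thinned cells.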
